A study of Homo sapiens with 20 samples.

Results

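The alpha-actinin genes are *ACTN1*, *ACTN2*, *ACTN3* and *ACTN4*, and all 4 were found by their Ensembl identifiers among the 58233 genes of each count table. They were selected because reads on the muscle-type gene *ACTN2* were higher after *ADAR* knockout (KO) in these libraries, so the values of *ACTN2* are a description and carry no test. Its 3 paralogs were taken for comparison by family membership. RNA-seq was performed on 4 human lung cancer cell lines that carried Cas9 and an sgRNA, in 20 libraries of 10 conditions. HCC366, NCI-H1650 and NCI-H196, which the study classed as ADAR1-dependent, were untreated and carried an sgRNA against *GFP* (the control, a sequence that human cells lack) or *ADAR*. A549 cells, which were not ADAR1-dependent, carried the same targets and received vehicle or 10 ng/mL interferon-β (IFN-β) for 24 h. Every condition had 2 libraries, sg1 and sg2, that differ in the sgRNA, so the spread reported here is that between sgRNAs, which were taken as replicates, and nothing in the sources used here says that they were separate experiments. Transcripts of *ADAR* were still counted with *ADAR* sgRNAs, and the cause was not tested.

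Alpha-actinins are antiparallel dimers that crosslink actin filaments, built from an amino-terminal actin-binding domain, a rod of spectrin repeats and a carboxy-terminal calmodulin-like domain. *ACTN1* and *ACTN4* encode the non-muscle forms, which sit in stress fibres, adhesions and the cell cortex. *ACTN2* and *ACTN3* encode the muscle forms, which anchor actin filaments in the Z-disc of the sarcomere: *ACTN2* is used in the heart and in all skeletal muscle fibres, and *ACTN3* in fast fibres. *ADAR* encodes ADAR1, an enzyme that converts adenosine to inosine in double-stranded RNA and whose loss is known to let such RNA be sensed as foreign.

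*ACTN1* (ENSG00000072110) lies on the minus strand of chromosome 14, chr14:69340845-69446157, in GRCh37 (hg19) coordinates. *ACTN2* (ENSG00000077522) is at chr1:236827441-236927931 on the plus strand, *ACTN3* (ENSG00000248746) at chr11:66313866-66330805 on the plus strand and *ACTN4* (ENSG00000130402) at chr19:39138289-39222229 on the plus strand. The canonical transcript of *ACTN1* has 22 exons and 3722 bases, and those of *ACTN2*, *ACTN3* and *ACTN4* have 21 exons each and 4872, 2882 and 4990 bases. RefSeq start-site windows, 250 bases before to 50 bases after the start, were at hand for *ACTN1*, *ACTN2* and *ACTN4* and are shown because the promoters of the nearly silent muscle gene and of its abundant paralogs can be read side by side. Each was located in GRCh37 by an exact match and begins 250 bases ahead of the start of the canonical transcript, at chr14:69445970-69446269 (minus strand), chr1:236849549-236849848 (plus strand) and chr19:39138039-39138338 (plus strand). They are printed 5′ to 3′, with capitals marking matches to the E-box CACGTG, the AP-1 site TGANTCA and TGACG, the core of the cAMP response element, on either strand.
ACTN1: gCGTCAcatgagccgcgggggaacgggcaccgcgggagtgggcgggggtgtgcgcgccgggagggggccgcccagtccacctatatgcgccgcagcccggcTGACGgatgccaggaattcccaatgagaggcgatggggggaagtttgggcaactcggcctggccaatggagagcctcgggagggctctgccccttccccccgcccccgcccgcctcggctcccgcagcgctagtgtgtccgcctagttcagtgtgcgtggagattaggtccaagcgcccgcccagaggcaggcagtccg
ACTN2: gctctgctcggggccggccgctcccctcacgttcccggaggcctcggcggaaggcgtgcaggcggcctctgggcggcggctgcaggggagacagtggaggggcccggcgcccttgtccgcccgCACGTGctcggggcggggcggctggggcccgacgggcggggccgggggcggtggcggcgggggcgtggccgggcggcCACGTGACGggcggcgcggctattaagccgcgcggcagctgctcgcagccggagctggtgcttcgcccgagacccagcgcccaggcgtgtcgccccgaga
ACTN4: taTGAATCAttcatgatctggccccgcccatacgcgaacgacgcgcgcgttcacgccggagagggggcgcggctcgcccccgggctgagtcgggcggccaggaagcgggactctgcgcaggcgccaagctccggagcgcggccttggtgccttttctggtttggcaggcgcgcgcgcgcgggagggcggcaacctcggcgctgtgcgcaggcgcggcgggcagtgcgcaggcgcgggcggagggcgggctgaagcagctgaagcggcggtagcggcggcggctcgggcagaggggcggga
The *ACTN2* window held 2 copies of CACGTG and 1 of TGACG, the latter overlapping the second CACGTG, and 1 copy of the muscle E-box CAGCTG. The *ACTN1* window held 2 copies of TGACG, and the *ACTN4* window 1 copy of TGANTCA and 1 of CAGCTG. Over all 34796 windows of this length, CACGTG was present in 7.20%, TGACG in 24.5%, TGANTCA in 7.73% and CAGCTG in 17.9%. No window of the 3 members held the letters TGATGNAA (CHOP-ATF4 composite site, in 3.63% of all windows), CATTCC (MCAT element, in 4886 windows), the interferon-stimulated response element (3.57%) or a CArG box (1.30%). The GC content was 80.3% for *ACTN2*, 71.0% for *ACTN1* and 74.7% for *ACTN4*, against a median of 58.7% over all windows, and 2.30% of all windows reached the GC content of *ACTN2*. A match is a description of letters and not evidence of binding.

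Reads on genes numbered from 62679 to 19520189 per library, with a median of 6411279. The library of NCI-H196 GFP sg2 was the shallowest, so 3 reads there correspond to 31.3 CPM, and HCC366 ADAR sg2 had the highest share of alignments that were not unique (85.6%). Levels are given as CPM (counts divided by the scaled library size in units of 1000000 reads) scaled by the TMM method over all 20 libraries. *ADAR*, the targeted gene, stood lower with each *ADAR* sgRNA than with each *GFP* sgRNA in every line and treatment, for example 239 and 264 CPM against 554 and 664 CPM in NCI-H1650 and 424 and 449 CPM against 576 and 616 CPM in NCI-H196. In A549 cells with IFN-β it was 809 and 1056 CPM against 1448 and 1468 CPM.

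*ACTN2* was near absent from control cells and was read after *ADAR* KO in HCC366 and NCI-H1650 cells. In HCC366, the *GFP* libraries held 3 and 1 *ACTN2* reads (2.14 and 0.267 CPM for sg1 and sg2) and the *ADAR* libraries 29 and 37 reads (23.6 and 21.0 CPM). In NCI-H1650, the *GFP* libraries held 1 read each (0.197 and 0.209 CPM) and the *ADAR* libraries 25 and 28 reads (4.13 and 5.34 CPM). In these bulk libraries, more cells with *ACTN2* RNA and more *ACTN2* RNA per cell cannot be told apart. In both lines, each *ADAR* sgRNA stood above each *GFP* sgRNA, and the 2 *ADAR* sgRNAs were within each other's exact Poisson intervals. In NCI-H196, the third ADAR1-dependent line, *ACTN2* had 1 and 0 reads with *GFP* sgRNAs and 1 and 5 reads with *ADAR* sgRNAs (0.807 and 0.552 CPM), and the gene did not pass the filter on low counts there.

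In A549 cells, no *ACTN2* read was found in any of the 4 vehicle libraries, which allows up to 0.163 CPM over the *GFP* pair and 0.204 CPM over the *ADAR* pair by a limit of 3 reads. With IFN-β, *GFP* libraries held 1 and 7 reads (0.113 and 0.528 CPM) and *ADAR* libraries 10 and 27 reads (1.23 and 1.66 CPM). All 4 IFN-β libraries therefore had reads, and both *ADAR* libraries were above both *GFP* libraries. Over both sgRNAs, the summed level with IFN-β was 2.21 times the vehicle limit in *GFP* cells and 7.43 times in *ADAR* KO cells. In *GFP* cells its exact Poisson interval, 0.156 to 0.713 CPM, began below the limit of 0.163 CPM, so 2.21 is not a lower bound. In *ADAR* KO cells the interval was 1.07 to 2.09 CPM, above the limit of 0.204 CPM. The 1 read of *GFP* sg1 alone was below the limit of the *GFP* pair.

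**Figure D1:**
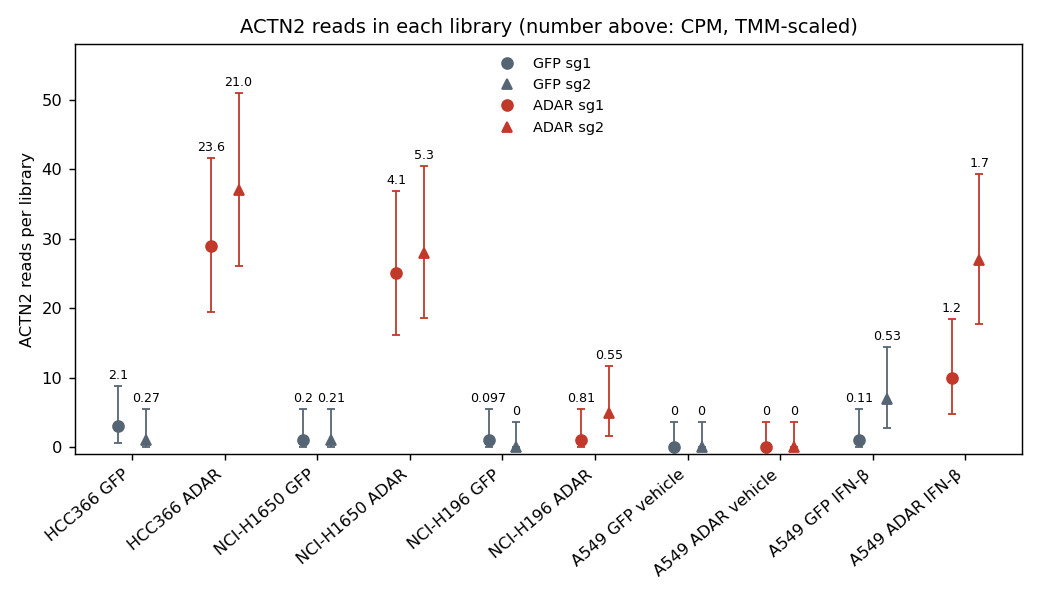
Reads of *ACTN2* per library (y axis) by condition (x axis), with circles for sg1, triangles for sg2, grey for *GFP* and red for *ADAR*; bars are exact 95% Poisson intervals, which cover counting error, and the number above each point is its CPM. The *ADAR* libraries of HCC366 and NCI-H1650 hold 25 to 37 reads, their *GFP* libraries 1 to 3, and the 4 vehicle libraries of A549 none.

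Because *ACTN2* was chosen by its rise, the intervals below are a description and do not test a difference. The size of the *ACTN2* difference was taken as the ratio of summed reads per scaled library size, with an exact 95% interval that covers counting error only. It was 28.4-fold in HCC366 (interval 10.6 to 107, from 66 against 4 reads), 23.2-fold in NCI-H1650 (6.11 to 196.5, from 53 against 2 reads) and 4.19-fold in A549 cells with IFN-β (1.92 to 10.4, from 37 against 8 reads). By single *ADAR* sgRNA against both *GFP* libraries, it was 30.3-fold and 27.1-fold in HCC366, 20.4-fold and 26.4-fold in NCI-H1650, and 3.40-fold and 4.59-fold in A549 cells with IFN-β. In NCI-H196 the ratio was 6.08-fold with an interval of 0.737 to 279, from 6 against 1 read, which are too few to size a difference. The level itself stayed low there: *ADAR* sg2, with 8426906 reads on genes, had 0.552 CPM (exact Poisson interval 0.179 to 1.29). That interval lies below those of both NCI-H1650 *ADAR* libraries, which begin at 2.67 and 3.55 CPM. The intervals of the ratios are wide because the control libraries held few reads, and the ratios of HCC366 and NCI-H1650 cannot be ordered from them.

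In the fits across all genes, the fitted log2 fold change of *ACTN2* was 4.69 in HCC366, 4.37 in NCI-H1650, 2.07 in A549 cells with IFN-β and 4.34 over the 3 ADAR1-dependent lines together. Ordered by increase, this placed *ACTN2* 14th of 11135 genes in HCC366, first of 14530 in NCI-H1650, 79th of 15449 in A549 with IFN-β and 4th of 16538 in the joint fit of the 3 lines. These ranks are the values by which the gene was chosen. In HCC366 and NCI-H1650 the gene passed the filter on low counts through its *ADAR* libraries, as their *GFP* libraries held 1 to 3 reads. In A549 it passed through the *ADAR* libraries with IFN-β, as the vehicle libraries held no read and the *GFP* libraries with IFN-β 1 and 7. It did not pass in NCI-H196 alone, so the value and rank over the 3 lines rest mainly on HCC366 and NCI-H1650. Single control libraries set much of the size: the fitted value in HCC366 was 6.12 without GFP sg1 and 3.35 without GFP sg2, that in A549 with IFN-β was 3.60 without GFP sg2 and 1.51 without GFP sg1, and that of the 3 lines was 3.63 without HCC366 GFP sg2. The gene was counted as a sum over its transcripts, which share no exon with any other counted gene within 250 kb.

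*ACTN3*, the fast-fibre form, had 24 reads in all 20 libraries together, from 0 to 5 per library, with 8 libraries at 0. Its highest level was 2.84 CPM, from 5 reads in HCC366 ADAR sg2, and HCC366 ADAR sg1 had 1 read. It failed the filter on low counts in each of the single-line, A549 and 3-line fits. In the fit of all 20 libraries, where it passed, the *ADAR* KO effect in the 3 lines minus that in A549 with vehicle had a log2 value of 0.66 (standard error 1.75, adjusted p = 0.984 by edgeR's quasi-likelihood test). An antisense lncRNA, ENSG00000250105, overlaps exons of *ACTN3* and had 2 reads in all libraries. The counting is not stated to use strand, so those reads cannot be told apart.

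The non-muscle genes were read in large numbers in every line, and neither passed the test after *ADAR* KO in any ADAR1-dependent line. In HCC366, *ACTN1* was 1098 and 1008 CPM with *GFP* sgRNAs and 1054 and 1233 CPM with *ADAR* sgRNAs. In NCI-H1650 it was 643 and 605 CPM against 660 and 624 CPM, and in NCI-H196 it was 1530 and 1002 CPM against 1235 and 1346 CPM. The groups overlapped in all 3 lines. The log2 fold changes of *ACTN1* were 0.16 (standard error 0.29, adjusted p = 0.792) in HCC366, 0.03 (0.10, adjusted p = 0.923) in NCI-H1650 and −0.13 (0.11, adjusted p = 0.468) in NCI-H196, all by edgeR's quasi-likelihood test. In NCI-H196 the value rests on 1 control library: without GFP sg2, which had 96 *ACTN1* reads, it was −0.21 with an adjusted p of 0.00479, and without GFP sg1 it was 0.14 with an adjusted p of 0.774.

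*ACTN4* was 1439 and 1302 CPM with *GFP* sgRNAs and 1244 and 1230 CPM with *ADAR* sgRNAs in HCC366. These groups did not overlap, but 2 libraries per group can separate without a difference. The share of all genes that did so was not counted. In NCI-H1650 *ACTN4* was 1378 and 1343 CPM against 1408 and 1290 CPM, and in NCI-H196 659 and 449 CPM against 547 and 620 CPM. The groups overlapped in both of these lines. The log2 fold changes of *ACTN4* were −0.11 (standard error 0.28, adjusted p = 0.849), −0.03 (0.10, adjusted p = 0.920) and −0.09 (0.11, adjusted p = 0.611) in the order given. In the joint fit of the 3 lines, they were 0.03 (0.12, adjusted p = 0.927) for *ACTN1* and −0.07 (0.11, adjusted p = 0.736) for *ACTN4*. In these fits 1.25% of all genes tested were called at an adjusted p below 0.05 in HCC366. The share was 8.6% for NCI-H1650, 17.8% for NCI-H196 and 5.3% for the 3 lines together, and neither gene was among them. These shares rest on single libraries: with each left out in turn, 9 to 6408 genes were called in HCC366 (139 with all), 542 to 1110 in NCI-H1650 (1250), 41 to 3041 in NCI-H196 (2513) and 328 to 1907 in the 3 lines (876). The lowest and highest of HCC366 came without GFP sg2 and without ADAR sg1, those of NCI-H196 without GFP sg1 and without GFP sg2, and those of the 3 lines without HCC366 GFP sg1 and without HCC366 ADAR sg2.

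**Figure D2:**
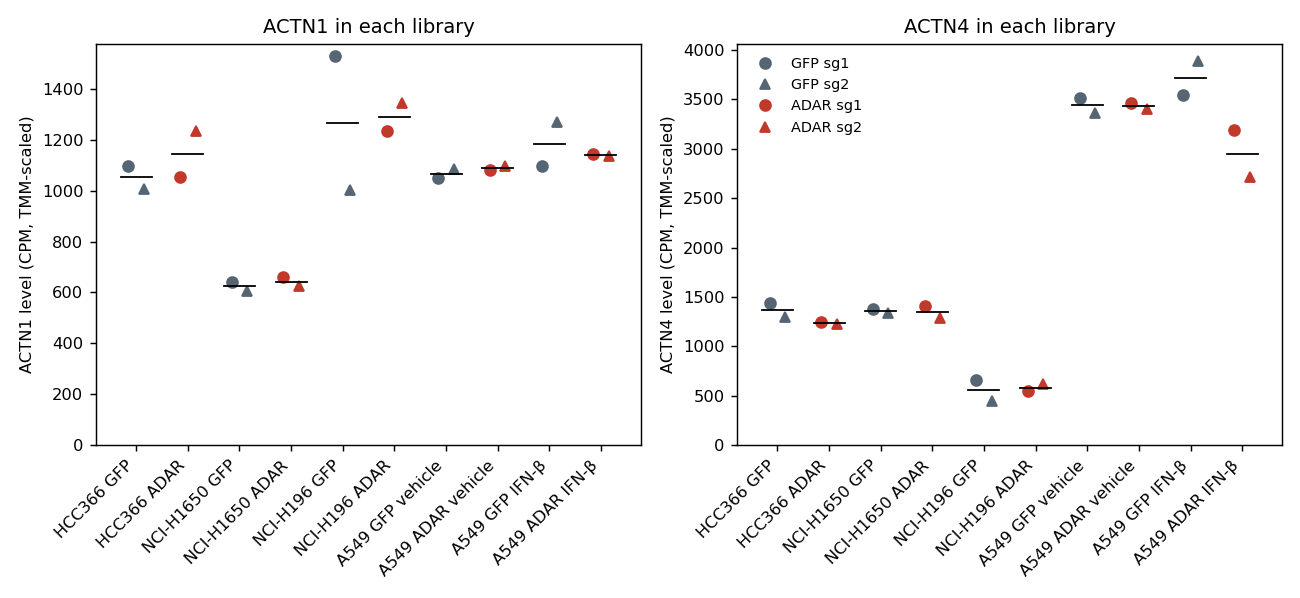
Levels of *ACTN1* (left) and *ACTN4* (right) in each library in TMM-scaled CPM, by condition, with circles for sg1, triangles for sg2, grey for *GFP*, red for *ADAR* and a line at the mean of the pair. *ACTN4* stands highest in A549, where the *ADAR* libraries with IFN-β, at 3191 and 2714 CPM, lie below the other A549 libraries.

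In A549 cells with vehicle, where *ADAR* KO called 0.123% of all genes, neither gene passed the test. *ACTN1* was 1051 and 1083 CPM with *GFP* and 1082 and 1097 CPM with *ADAR* sgRNAs (log2 fold change 0.03, standard error 0.10, adjusted p = 0.998). *ACTN4* was 3517 and 3365 CPM against 3467 and 3408 CPM (0.00, 0.10, adjusted p = 1 by edgeR's quasi-likelihood test). The difference between the mean *ADAR* KO effect in the 3 ADAR1-dependent lines and the effect in A549 with vehicle was 0.02 for *ACTN1* (standard error 0.20, adjusted p = 1.00) and −0.05 for *ACTN4* (0.20, adjusted p = 1.00), in a fit that called 0.953% of all genes.

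With IFN-β, *ACTN4* was lower after *ADAR* KO in A549 cells: 3191 and 2714 CPM for the *ADAR* sgRNAs against 3548 and 3890 CPM for the *GFP* sgRNAs. *ADAR* KO thus gave *ACTN4* a log2 fold change of −0.29 (SE 0.10, adjusted p = 0.0467 by edgeR's quasi-likelihood test), in a comparison that called 17% of all genes. *ACTN1* was 1142 and 1135 CPM against 1096 and 1268 CPM (−0.01, 0.10, adjusted p = 0.947). The *ACTN4* call stood near the threshold: it was lost when any of the vehicle libraries was left out (adjusted p from 0.0625 to 0.0686), without GFP sg2 with IFN-β (−0.23, adjusted p = 0.185), without ADAR sg2 with IFN-β (−0.17, adjusted p = 0.462) and in the fit of all 20 libraries (−0.33, adjusted p = 0.285).

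IFN-β itself called 5.7% of all genes in *GFP* cells and 24.5% in *ADAR* KO cells, neither member among them. In *GFP* cells the log2 fold changes were 0.17 (standard error 0.10, adjusted p = 0.440) for *ACTN1* and 0.13 (0.10, adjusted p = 0.612) for *ACTN4*. In *ADAR* KO cells they were 0.12 (0.10, adjusted p = 0.383) and −0.16 (0.10, adjusted p = 0.274) by the same test. The interaction, the *ADAR* KO effect with IFN-β minus that with vehicle, was −0.04 (0.14, adjusted p = 0.911) for *ACTN1* and −0.29 (0.14, adjusted p = 0.273) for *ACTN4*, where 5.05% of all genes were called. The drop of *ACTN4* under IFN-β is therefore not shown to differ from the effect with vehicle. Vehicle and IFN-β libraries of the same name share their sgRNA, which these fits left out. With a block by sgRNA, the same test gave adjusted p = 0.584 for *ACTN1* and 0.714 for *ACTN4* in *GFP* cells. In *ADAR* KO cells it gave 0.481 and 0.332, and for the interaction 0.941 and 0.350.

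**Figure D3:**
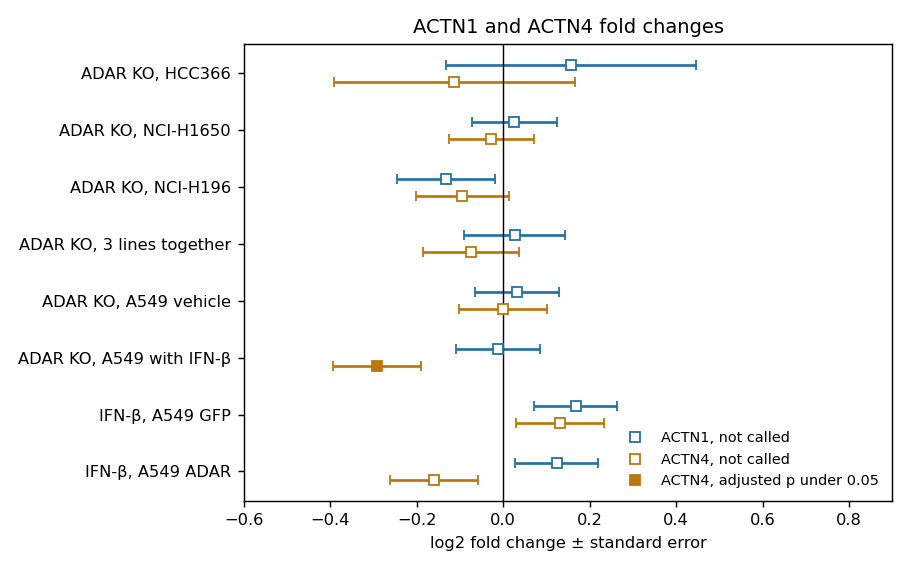
Log2 fold change (x axis) with its standard error for *ACTN1* (blue) and *ACTN4* (orange) in 8 comparisons (y axis), with a filled square where the adjusted p was below 0.05. The single filled square is *ACTN4* after *ADAR* KO in A549 with IFN-β, at −0.29.

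Between untreated control cells, the order of *ACTN1* was NCI-H196 at 1266 ± 373 CPM (SD, n = 2), A549 with vehicle at 1067 ± 22.5 CPM, HCC366 at 1053 ± 63.8 CPM and NCI-H1650 at 624 ± 26.5 CPM. The first pair of neighbours did not pass the test (log2 difference 0.30, standard error 0.18, adjusted p = 0.163, where 57.8% of all genes were called), nor did the second (0.02, 0.18, adjusted p = 0.954, where 50.8% were called). HCC366 was higher than NCI-H1650 by 0.75 (0.18, adjusted p = 0.000909 by edgeR's quasi-likelihood test, where 41% were called). The value of NCI-H196 rests on its deep library: against A549 it was 0.51 with an adjusted p of 0.0167 without GFP sg2, and −0.11 with an adjusted p of 0.982 without GFP sg1.

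The order of *ACTN4* was another one, A549 at 3441 ± 107 CPM (SD, n = 2), HCC366 at 1370 ± 96.9 CPM, NCI-H1650 at 1361 ± 24.4 CPM and NCI-H196 at 554 ± 149 CPM. A549 was higher than HCC366 by 1.33 in log2 units (standard error 0.17, adjusted p = 9.98e-08), and NCI-H1650 higher than NCI-H196 by 1.21 (0.19, adjusted p = 1.83e-06 by edgeR's quasi-likelihood test, where 46.7% were called). HCC366 and NCI-H1650 did not pass the test (0.01, 0.17, adjusted p = 0.987). NCI-H196, lowest in *ACTN4* and highest in *ACTN1* by its mean, also had the lowest control level of the keratin gene *KRT8* among the 4 lines (20.9 and 40.4 CPM) and the highest of the collagen gene *COL1A1*, a fibroblast marker (1803 and 1889 CPM). The part of these differences in the result was not tested.

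Per kilobase of canonical transcript, *ACTN4* was above *ACTN1* in control A549 cells (690 ± 21.5 against 287 ± 6.06 CPM per kb, SD, n = 2) and NCI-H1650 cells (273 ± 4.88 against 168 ± 7.12 CPM per kb). *ACTN1* was above *ACTN4* in NCI-H196 (340 ± 100 against 111 ± 29.8 CPM per kb), and in HCC366 they differed by less than their SDs (283 ± 17.1 and 275 ± 19.4 CPM per kb). The choice of length decides part of that order: over the union of all annotated exons, *ACTN4* was higher in HCC366 (224 against 73.5 CPM per kb) and the genes were close in NCI-H196 (90.4 and 88.4 CPM per kb). On the canonical length, *ACTN2* in HCC366 *ADAR* KO cells came to 4.58 CPM per kb, against 307 CPM per kb for *ACTN1* and 248 CPM per kb for *ACTN4* in the same cells. *ACTN2* thus supplied 0.912% of the family's 7233 reads there, 0.235% of 22597 in NCI-H1650 *ADAR* KO cells and 0.0378% of 97926 in A549 *ADAR* KO cells with IFN-β.

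The ratio of *ACTN4* to *ACTN1* reads within a library does not depend on library scaling and is given as a description. On the log2 scale it was 0.39 and 0.37 in the *GFP* libraries of HCC366 and 0.24 and 0.00 in the *ADAR* libraries, with no overlap. In A549 with IFN-β it was 1.70 and 1.62 against 1.48 and 1.26, again with no overlap, whereas with vehicle it was 1.74 and 1.64 against 1.68 and 1.64. In NCI-H1650 it was 1.10 and 1.15 against 1.09 and 1.05. These did not overlap either, but the nearest values differed by less than the 2 libraries of either target. In NCI-H196 it was −1.22 and −1.16 against −1.17 and −1.12, which overlapped. With 2 libraries per group, ranges can separate without a difference, and the share of genes that do so was not counted. The shallow NCI-H196 GFP sg2 library gave a ratio close to that of its deep partner although their *ACTN1* levels differed.

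**Figure D4:**
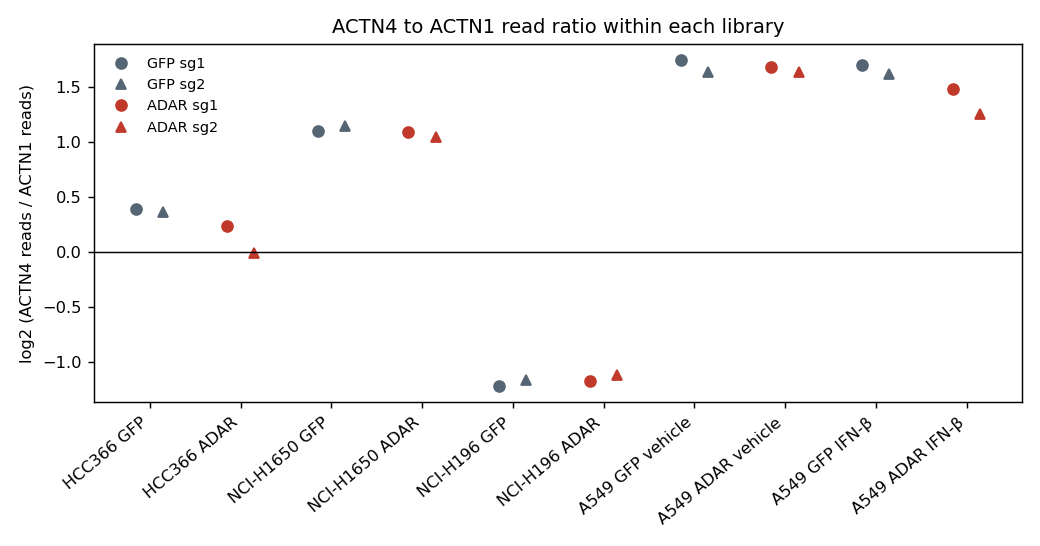
Log2 ratio of *ACTN4* to *ACTN1* reads (y axis) in each library by condition (x axis), with circles for sg1, triangles for sg2, grey for *GFP* and red for *ADAR*. The lines differ more than the targets do, from −1.22 in NCI-H196 to 1.74 in A549. The *ADAR* libraries of HCC366, of NCI-H1650 and of A549 with IFN-β lie below their *GFP* libraries, in NCI-H1650 only just (1.09 against 1.10).

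Genes that act with alpha-actinin were read from 6 lists. Of 23 Z-disc partners, 14 were tested in the 3 ADAR1-dependent lines, where 4.28% of all genes were called higher and 1.02% lower, and 1 rose and none fell. It was *MYPN*, a Z-disc protein that binds alpha-actinin (log2 fold change 0.62, standard error 0.17, adjusted p = 0.0430). None of the 6 sarcomere filament genes tested out of 26 was called, and neither was any of the 11 muscle regulators tested out of 19. The medians of the log2 fold changes in these 3 lists were 0.02, 0.02 and 0.30, against −0.01 over all genes tested. The myogenic factor *MYOG* had no read in any library, *MYOD1* had none in HCC366, NCI-H1650 and NCI-H196, and 13 of 26 sarcomere filament genes stayed under 1 CPM in every library. The summed level of 8 skeletal and cardiac muscle markers, nearly all of it from the long gene *TTN*, was 67.7 to 102.5 CPM with *GFP* and 27.8 to 64.2 CPM with *ADAR* sgRNAs in HCC366, and 55.0 to 58.2 against 47.1 to 52.7 CPM in NCI-H1650. In A549 with IFN-β it was 11.6 to 18.6 against 14.8 to 15.7 CPM, and those ranges overlapped. In NCI-H196 the *GFP* range was 41.7 to 43.9 CPM, and the *ADAR* range began within it, at 43.6 CPM, and ended above it. The sum mainly describes *TTN*. In HCC366, *CKM*, *MYH7* and *TNNT2* had reads with *ADAR* sgRNAs only, as *DES* did in NCI-H1650. In A549 with IFN-β, *DES* and *CKM* had reads with *ADAR* sgRNAs only, and *MYOD1* and *ACTA1* with *GFP* sgRNAs only. Some alternatives called muscle regulators in the 3 ADAR1-dependent lines: 2 rose and 1 fell in 1 fit of all 20 libraries, and 1 rose and 1 fell without a filter. With DESeq2's Wald test or DESeq2 size factors 1 rose, and with GC content and length offsets 1 fell. With a replicate block by sgRNA number, 0 rose and 0 fell. Without HCC366 ADAR sg1, 1 muscle regulator rose, and without HCC366 ADAR sg2 1 rose and 1 fell.

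In the same fit, 1 of 26 adhesion partners tested rose, *SYNPO*, an actin-bundling partner of alpha-actinin (0.59, standard error 0.17, adjusted p = 0.0465), and none of 26 fell. Of 28 stress fibre genes 1 rose, *RHOB*, a small GTPase (1.32, 0.20, adjusted p = 0.000943), and none fell. Of 14 spectrin superfamily genes tested, which share the spectrin repeats of alpha-actinin, 1 rose, *SYNE1*, a nuclear envelope linker (1.11, 0.22, adjusted p = 0.00695), and none fell. The medians in these lists were −0.02, −0.20 and 0.15. By single line, 9 of 27 stress fibre genes fell and 1 rose in NCI-H196, where 1057 of 14094 genes fell and 1456 rose. Calls in that line rest on single libraries. In NCI-H1650 2 of 26 rose and 1 fell, where 898 of 14530 genes rose and 352 fell, and in HCC366 none of 26 was called. In the joint fit, the *RHOB* and *SYNE1* counts were the same with each library left out. The count of Z-disc partners fell to 0 without either GFP library or ADAR sg1 of HCC366, GFP sg2 or ADAR sg2 of NCI-H196, or GFP sg2, ADAR sg1 or ADAR sg2 of NCI-H1650, and rose to 2 without HCC366 ADAR sg2, and that of adhesion partners fell to 0 in 10 of 12 cases, all but the HCC366 *ADAR* libraries. The adhesion partner count was also 0 with GC content and length offsets. Other alternatives called more genes. Z-disc partners that rose numbered 3 in 1 fit of all 20 libraries. They numbered 2 with DESeq2's Wald test, without a filter, or with GC content and length offsets. In the fit of all 20 libraries 3 adhesion partners rose and 3 fell, and 3 spectrin superfamily genes rose and 3 fell. Without a filter these counts were 2 and 2, and 3 and 2. Stress fibre genes that fell numbered 4 with DESeq2's Wald test, 3 with GC content and length offsets, and 2 without a filter or in 1 fit of all 20 libraries. They numbered 0 with DESeq2 size factors or a replicate block by sgRNA number. Without both the shallowest library, NCI-H196 GFP sg2, and HCC366 ADAR sg2, an alternative added after the data were seen, 8 stress fibre genes, 3 adhesion partners and 1 spectrin superfamily gene fell, 2 Z-disc partners rose and 1 muscle regulator went each way, and without HCC366 ADAR sg2 alone 4, 2 and 1 fell.

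In A549 cells with IFN-β, where *ADAR* KO called 10.8% of all genes higher and 6.19% lower, the lists were read in the same way. Of 11 Z-disc partners tested, 2 rose and 1 fell: *ANKRD1*, a titin-binding ankyrin repeat protein, went from 2.82 and 3.69 CPM to 27.8 and 58.1 CPM (log2 fold change 3.75, standard error 0.30, adjusted p = 1.05e-10), *MYPN* rose by 1.80 (0.52, adjusted p = 0.0157) and the intermediate filament gene *SYNM* fell by 0.43 (0.12, adjusted p = 0.0130). Of 11 muscle regulators tested, 2 rose, the transcription factors *MEF2D* (0.58, adjusted p = 0.000238) and *TEAD1* (0.58, adjusted p = 0.000166). Of the 2 sarcomere filament genes tested, the slow troponin gene *TNNT1* fell by 0.39 (adjusted p = 0.0481). In 1 fit of all 20 libraries 2 Z-disc partners rose and none fell, and no muscle regulator or sarcomere filament gene was called. No sarcomere filament gene was called with DESeq2's Wald test or with GC content and length offsets either.

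Among 26 adhesion partners tested in those cells, 5 rose and none fell, led by *SYNPO* (0.82, standard error 0.10, adjusted p = 9.27e-07) and *TES*, a focal adhesion protein (0.45, 0.12, adjusted p = 0.00752). Among 26 stress fibre genes tested, 1 rose and 5 fell: *RHOB* rose by 0.54 (adjusted p = 0.000123), and *MYH10*, a non-muscle myosin, and *TPM2*, a tropomyosin, fell by 0.43 (adjusted p = 0.0106) and 0.42 (adjusted p = 0.00470). In the spectrin superfamily *SYNE1* rose by 1.22 (0.13, adjusted p = 4.12e-08), and *SPTBN5* and *SYNE2* fell by 2.02 (adjusted p = 0.0201) and 0.44 (adjusted p = 0.00598). In the fit of all 20 libraries, 1 adhesion partner rose, no stress fibre gene rose, 1 stress fibre gene and 1 spectrin superfamily gene fell. Without ADAR sg2 with IFN-β the counts were 1 up and 0 down for Z-disc partners, 1 up for adhesion partners, 0 down for stress fibre genes and 0 down for the spectrin superfamily, and without GFP sg2 with IFN-β they were 1 and 0, 2, 1 and 1. Adhesion partners also came to 3 without any single vehicle library or without ADAR sg1 with IFN-β, the spectrin superfamily to 4 down without GFP sg1 with IFN-β and 1 without ADAR sg1 with IFN-β, and with 1 library left out *TNNT1* was called only without GFP sg1 or without ADAR sg1 with IFN-β, and the count was 0 in the other cases. The medians were −0.28 for Z-disc partners, 0.01 for sarcomere filament genes, 0.13 for muscle regulators, 0.11 for adhesion partners, −0.09 for stress fibre genes and −0.05 for the spectrin superfamily, against −0.01 over all genes tested.

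Patterns over the 10 conditions were compared by Pearson's r of log2 CPM, from the summed reads of each condition with a prior count of 2. The genes most like each member, among 19523 genes, are a description over conditions that share lines and libraries. For *ACTN2* they were *KLF5* (0.970), *ZBTB49* (0.958), *PRKRIP1* (0.956), *ABTB2* (0.948) and *NFKB2* (0.947). Reads of *ACTN2* per condition were few, from 0 in A549 with vehicle to 66 in HCC366 *ADAR* KO cells. These r values therefore depend in part on the prior count. Mean levels of *KLF5* were 82.5 and 206 CPM in HCC366 (*GFP* and *ADAR*), 88.0 and 147 CPM in NCI-H1650 and 37.1 and 83.5 CPM in NCI-H196. In A549 they were 58.1 and 55.7 CPM with vehicle and 66.0 and 102 CPM with IFN-β. *NFKB2*, a subunit of NF-kB, had mean levels of 328 and 1024 CPM in HCC366 (*GFP* and *ADAR*), 214 and 434 CPM in NCI-H1650, 116 and 329 CPM in NCI-H196, 149 and 163 CPM in A549 with vehicle and 251 and 592 CPM in A549 with IFN-β. *ACTN2* correlated with *ACTN1* at −0.17 and with *ACTN4* at −0.25.

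For *ACTN1* the most alike genes were *BCAN-AS1* (0.987), *PARVA* (0.984) and *BCAN* (0.979). *PARVA*, an adhesion protein that binds actin, was 138 CPM in NCI-H196, 100 CPM in A549 with vehicle, 95.1 CPM in HCC366 and 33.6 CPM in NCI-H1650 control cells. For *ACTN4* they included the ribosomal protein genes *RPL28* (0.997) and *RPS16* (0.997), both on chromosome 19 like *ACTN4*. *RPL28* had a mean of 1319 CPM in A549 *ADAR* KO cells with IFN-β and 1570 CPM in their *GFP* cells, and *ACTN4* means of 2953 and 3719 CPM.

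**Figure D5:**
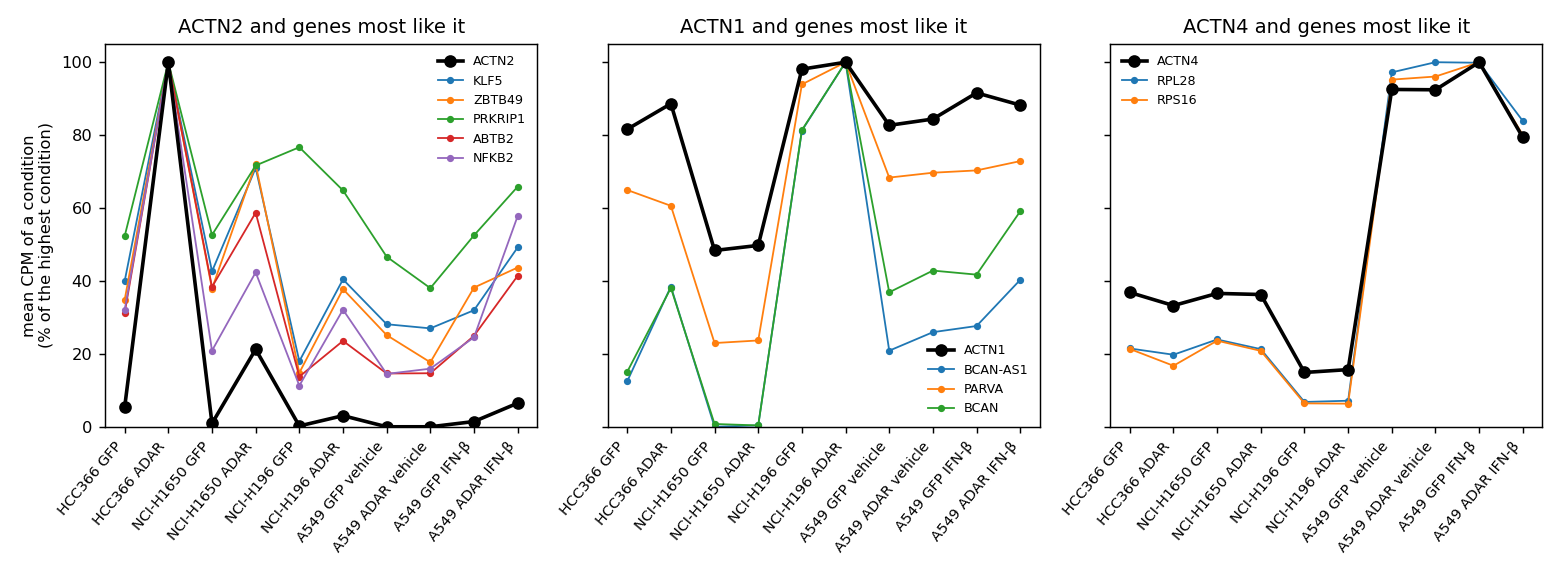
Mean CPM of each condition as a percentage of the gene's highest condition (y axis) over the 10 conditions (x axis), for *ACTN2*, *ACTN1* and *ACTN4* (black) and genes among those most like each by correlation of log2 CPM (coloured). *ACTN2* reaches its highest level in HCC366 *ADAR* KO cells, and *ACTN4*, *RPL28* and *RPS16* are all highest in A549.

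Within 250 kb, *ACTN2* had 11 counted neighbours, none of which overlapped its exons. Of the 5 that passed the filter, none was called in the 3 ADAR1-dependent lines or in A549 cells with IFN-β. The nearest, *MTR* (30629 bases downstream, methionine synthase), had log2 fold changes of −0.40 in HCC366 (adjusted p = 0.531) and −0.15 in NCI-H1650 (adjusted p = 0.498), and *HEATR1*, on the other side and the opposite strand, −0.60 (adjusted p = 0.426) and −0.28 (adjusted p = 0.0822), by edgeR's quasi-likelihood test.

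*ACTN4* overlaps exons of *CAPN12* on the opposite strand, which had at most 7.30 CPM and a log2 fold change of −0.93 in A549 with IFN-β (adjusted p = 0.0956). Of its 31 neighbours, 15 were tested in each comparison. In the 3 lines 1 of them rose and none fell, where 4.28% of all genes rose and 1.02% fell, and in A549 with IFN-β 2 rose and 1 fell, where the shares over all genes were 10.8% and 6.19%. Among them *NFKBIB*, an inhibitor of NF-kB, rose in both (0.85, adjusted p = 0.0337, and 0.53, adjusted p = 0.00134) and *ECH1*, an enzyme of fatty acid oxidation, fell by 0.46 in A549 with IFN-β (adjusted p = 0.00503). *ACTN1* had 18 neighbours, of which 2 of 5 tested rose in A549 with IFN-β, beside 10.8% of all genes, *ZFP36L1* (0.79, adjusted p = 1.03e-06) and *DCAF5* (0.38, adjusted p = 0.0289). None of the 5 fell, and none of 6 tested in the 3 lines was called. The processed pseudogene *HMGN1P3*, which overlaps exons of *ACTN1*, had no reads. Of the 36 neighbours of *ACTN3*, none rose in either comparison. In the 3 lines 1 of 22 tested fell, the glucuronyltransferase gene *B4GAT1* (−0.73, adjusted p = 0.0294), beside 1.02% of all genes. In A549 with IFN-β 4 of 20 tested fell, beside 6.19% of all genes: *B4GAT1* (−1.0, adjusted p = 0.000242), *TMEM151A* (−1.43, adjusted p = 0.0107), the nucleoside transporter gene *SLC29A2* (−0.63, adjusted p = 0.0484) and the mitochondrial ribosomal protein gene *MRPL11* (−0.37, adjusted p = 0.0371).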

How the data were processed

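RNA-seq of 20 libraries was analysed. The authors depleted ribosomal RNA, made directional libraries, used STAR for alignment to hg19 and HTSeq for counting by gene, and the deposited files hold these raw counts, without normalization. Versions, the annotation release and the strand setting are not given in the sources used here. Symbols matched 55727 of 58233 identifiers, and positions came from a GENCODE annotation on GRCh37. HTSeq's summary lines were left out of library sizes.

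Counts were fitted with edgeR 4.0.16 (limma 3.58.1, R 4.3.3) after TMM scaling and filterByExpr by condition, and tested by the quasi-likelihood F-test with Benjamini-Hochberg adjustment over all genes and a threshold of 0.05. The 3 ADAR1-dependent lines were fitted singly and together (line as covariate), the 8 A549 libraries together, and all 20 for differences between lines. The steps were tested on simulated data. DESeq2 1.42.0, no filter, DESeq2 size factors, GC content and length offsets, 1 fit of all libraries, a replicate block and leaving out each library were the alternatives. Fold changes used a prior count of 0.125. Intervals for few reads are exact, at 95%, and cover counting error only, and a limit for 0 reads uses 3 reads. The 4 members and all lists were chosen with earlier results of these data known. Named genes were the members, *ADAR*, the 2 largest called increases and decreases of each list, genes within 250 kb of a member, and the 5 (*ACTN2*) or 3 genes most alike in pattern. Marker genes, and *KLF5*, *NFKB2*, *PARVA* and *RPL28* among the alike genes, were given values after these were seen. 1 of the genes most like *ACTN4* is not reported here. Same-numbered sgRNAs of the 2 targets deviated together in no comparison (correlations from −0.253 to −0.00612), so numbers were not taken as pairs.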

Additional observations from a re-analysis of the deposited data

How the results depend on the processing

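Of 412 values of 30 results on members under the alternatives, 353 were kept, 41 changed sign, none of them called, and 18 crossed the threshold or moved. A tested value was kept if its direction and side of the threshold stayed. A value of *ACTN2*, which has no test, was kept if it changed by less than the SD between libraries, and moved otherwise. The causes were not tested. In 1 fit of all 20 libraries, the log2 effect of *ADAR* KO on *ACTN4* was −0.0010 in A549 with vehicle and −0.33 (no longer called) with IFN-β. With DESeq2's Wald test *ACTN1* was 0.42 in NCI-H196 minus A549 (now called) and −0.17 in A549 minus HCC366, with DESeq2 size factors in edgeR 0.41 (now called) and −0.17, and *ACTN4* with vehicle was −9.5e-05 and −0.000125. Without a filter, *ACTN1* was −0.012 in the 3 lines minus A549, −0.0078 in the 3 lines and 0.0096 in A549 with IFN-β, and *ACTN4* −0.021 in HCC366 minus NCI-H1650. With GC content and length offsets, *ACTN1* was −0.15 in the 3 lines, −0.10 in NCI-H1650, −0.20 in HCC366 and −0.013 for IFN-β in *ADAR* KO cells, where *ACTN4* was −0.27 (now called).

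With each library left out, *ACTN1* ranged from −0.14 to 0.060 in the interaction, −0.078 to 0.15 in the 3 lines minus A549, −0.10 to 0.093 in A549 with IFN-β, −0.033 to 0.062 in NCI-H1650, −0.21 to 0.14 in NCI-H196, −0.041 to 0.10 in the 3 lines (−0.088 without both NCI-H196 GFP sg2 and HCC366 ADAR sg2) and −0.11 to 0.51 in NCI-H196 minus A549. *ACTN4* ranged from −0.13 to 0.075 in the 3 lines minus A549, −0.42 to −0.17 in A549 with IFN-β, −0.051 to 0.051 with vehicle, −0.10 to 0.028 in NCI-H1650, −0.13 to 0.16 in NCI-H196 and −0.089 to 0.043 in HCC366 minus NCI-H1650. The fitted value of *ACTN2* ranged from 1.51 to 3.60 in A549 with IFN-β, 3.35 to 6.12 in HCC366, 4.18 to 4.54 in NCI-H1650 and 3.63 to 4.76 in the 3 lines.

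With a replicate block by sgRNA number, *ACTN4* in A549 with IFN-β was −0.30 (adjusted p = 0.0495), and no call on a member changed, whereas no adhesion partner rose in the 3 lines (main 1). With the block 300 of all genes were called in HCC366 (main 139), 115 in NCI-H196 (main 2513) and 362 in the 3 lines (main 876). Crossing the numbers in HCC366, added after the data were seen because same-numbered libraries there deviated in opposite directions, gave 960. Counts of all genes called were unstable: with each library left out they ranged from 689 to 3581 in A549 with IFN-β (main 2622), 3 to 22 with vehicle (main 19), 517 to 1245 and 1774 to 4568 for IFN-β in *GFP* and *ADAR* KO cells, 253 to 1663 in the interaction and 24 to 3032 in the 3 lines minus A549. 1 fit of all libraries called 3701 in HCC366, 159 (main 1250) in NCI-H1650, 98 in NCI-H196, 1087 (main 2622) in A549 with IFN-β, 5 (main 19) with vehicle, 2067 (main 3788) and 531 (main 880) for IFN-β in *ADAR* KO and *GFP* cells, 164 (main 780) in the interaction and 3148 in the 3 lines. DESeq2 called 362 genes for HCC366, 413 for NCI-H1650, 10 for NCI-H196, 11 in A549 with vehicle and 1314 in the 3 lines, no filter 903, 1552 and 1829 in HCC366, NCI-H196 and the 3 lines and 30 and 111 (main 186) in A549 with vehicle and the 3 lines minus A549, and GC content and length offsets 1054 and 1637 in HCC366 and NCI-H196, 1660 in the 3 lines and 1404 for IFN-β in *GFP* cells. Depth limits *ACTN2* and *ACTN3*, which had at most 37 and 5 reads per library.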
